A study of Homo sapiens with 16 samples.

Results

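The transcripts described here are those of 8 genes of the cardiac thick filament motor: the myosin heavy chains MYH6, MYH7 and MYH7B, the regulatory light chains MYL2 and MYL7, the essential light chains MYL3 and MYL4, and MYLK3, the kinase of the regulatory light chain. They were taken by name, with no threshold on a measured value, from the 43388 genes listed by symbol in the deposited RNA-seq table, and all 8 were above the filter on low values (a mean of at least 1 TPM over all libraries), as were 16122 genes in all. TPM, transcripts per 1000000, is a read count divided by the length of the gene and scaled so that a library sums to 1000000.

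The cells were wild-type cardiomyocytes (hPSC-CMs) differentiated by the GiWi protocol, a sequence of Wnt pathway activation and inhibition, from the WTC11 line of human induced pluripotent stem cells. They were kept in standard RPMI/B27 to Day 16, when 4 libraries were made (Day 16 RPMI/B27), and other wells then went on to Day 30 in standard RPMI/B27, in RPMI with its glucose set to 5 mM (RPMI_glcM/B27) or in human plasma-like medium (HPLM/B27), with 4 libraries in each. The Day 30 comparisons ask what further culture changed and what the medium changed, with RPMI_glcM/B27 separating the glucose level from the other constituents of HPLM. All cells came from 1 line and 1 differentiation, each library from 1 well, so the SD and the p-values cover the spread between wells and not between differentiations. The series description speaks of 3 wells in each medium while the labels give 4 libraries, and all 16 were used.

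Cardiomyocyte markers were high in these libraries. In all 16 libraries, every one of 12 cardiomyocyte markers was above 0, a low bar, since no fibroblast marker was at 0 throughout a group either. The summed level of the 12 cardiomyocyte markers was 12270 to 16420 TPM at Day 16 and 12810 to 20680 TPM at Day 30. That of 10 fibroblast markers was 544 to 921 TPM at Day 16 and 178 to 439 TPM at Day 30. Of 7 skeletal muscle markers, the determination genes MYOD1, MYF5 and MYF6 were listed at 0 in all libraries. MYOG was not, with means of 0.757 TPM at Day 16 and 1.71, 1.26 and 1.39 TPM at Day 30 (RPMI/B27, then RPMI_glcM/B27, then HPLM/B27). The list summed to at most 2.66 TPM in any library. Because the libraries are bulk RNA, fewer cells of a type and less RNA per cell cannot be told apart.

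A cardiac myosin molecule is a pair of heavy chains, each with a motor head that hydrolyses ATP and pulls on actin, and the neck of each head carries 1 essential and 1 regulatory light chain. MYH6 codes for the alpha heavy chain, the faster ATPase, which is typical of atrial muscle in humans, and MYH7 for the slower beta heavy chain, which prevails in the human ventricle. MYH7B codes for a related slow tonic heavy chain. Of the light chains, MYL2 is the ventricular and MYL7 the atrial regulatory form, and MYL3 is the ventricular and MYL4 the atrial and embryonic essential form. MYLK3, the cardiac myosin light chain kinase, phosphorylates the regulatory light chain.

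MYH6 and MYH7 lie in tandem on the minus strand of chromosome 14 in GRCh38 (hg38), MYH6 at 23381987 to 23408273 with 39 exons and MYH7 upstream of it at 23412740 to 23435660 with 40 exons. The coding sequences are 5820 bases for MYH6 and 5808 for MYH7, and 5279 of the 5808 aligned bases (90.9%) are identical. Their longest identical run is 395 bases, bases 3340 to 3734 of the MYH6 coding sequence and 3334 to 3728 of that of MYH7. Of the 50-base windows of the MYH6 transcript, 14.8% occur in the MYH7 transcript as well, and 14.6% the other way round, and no other pair among the 8 genes shares such a window. Since the authors' handling of reads that match both genes is not given in the sources used here, the level of each carries that uncertainty. The stretch of 60 coding bases in which the 2 genes differ most, at 25 bases, lies in the part that codes for loop 2, a surface loop of the motor head on its actin-binding face. It is printed 5′ to 3′ on the coding strand from GENCODE v44 transcripts, with the differing bases in capitals, to show where reads of the 2 genes are most readily separated:
MYH6, coding bases 1880 to 1939: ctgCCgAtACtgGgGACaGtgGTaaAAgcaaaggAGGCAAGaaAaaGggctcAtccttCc
MYH7, coding bases 1874 to 1933: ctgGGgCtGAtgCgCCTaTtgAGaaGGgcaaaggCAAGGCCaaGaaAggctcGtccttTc

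Each cardiac heavy chain gene holds a microRNA within it on the same strand. MIR208A lies in MYH6 (chromosome 14, 23388596 to 23388666), MIR208B in MYH7 (chromosome 14, 23417987 to 23418063) and MIR499A in MYH7B (chromosome 20, 34990376 to 34990497). Their mature strands from RefSeq, with the seed (bases 2 to 8) in capitals, show how close the products of the 3 host genes are:
hsa-miR-208a-3p: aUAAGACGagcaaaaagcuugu
hsa-miR-208b-3p: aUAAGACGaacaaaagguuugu
hsa-miR-499a-5p: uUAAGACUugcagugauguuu
The 2 miR-208 strands share a seed, and that of miR-499a differs from it in the last letter alone. Total RNA libraries on long fragments do not measure the mature strands, and almost no reads fell on the precursors: 0 to 4 reads per library on MIR208A, 0 to 6 on MIR208B, and 1 read in 1 library on MIR499A.

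The other genes lie apart: MYH7B on the plus strand of chromosome 20 at 34955868 to 35002437, MYL2 on the minus strand of chromosome 12 at 110910845 to 110921449, MYL3 on the minus strand of chromosome 3 at 46857872 to 46882182, MYL4 on the plus strand of chromosome 17 at 47189433 to 47227650, MYL7 on the minus strand of chromosome 7 at 44138864 to 44141332, and MYLK3 on the minus strand of chromosome 16 at 46702282 to 46763246. The promoters of MYH6 and MYL7, both typical of atrial muscle, are shown because the transcript of the first was lower at Day 30 and that of the second was not called in any comparison. They are the 250 bases before the start in RefSeq (GRCh38.p14), 5′ to 3′ on the minus strand, with the motif matches in capitals (GGAATG is CATTCC read on the opposite strand):
MYH6, chr14:23408274-23408523: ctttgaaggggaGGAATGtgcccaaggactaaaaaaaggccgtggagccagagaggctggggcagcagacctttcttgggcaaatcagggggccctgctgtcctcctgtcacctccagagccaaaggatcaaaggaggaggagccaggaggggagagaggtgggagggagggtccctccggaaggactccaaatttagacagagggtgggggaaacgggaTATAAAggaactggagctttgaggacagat
MYL7, chr7:44141333-44141582: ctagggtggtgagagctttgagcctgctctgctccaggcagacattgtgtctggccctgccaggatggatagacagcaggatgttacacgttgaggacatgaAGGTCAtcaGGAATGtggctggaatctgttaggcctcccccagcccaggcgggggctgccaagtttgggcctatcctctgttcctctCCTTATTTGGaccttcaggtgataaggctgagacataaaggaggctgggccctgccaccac
Both strands were searched for the TATA box as TATAAA, for the TEAD core as CATTCC, for the GATA factor site as AGATAA, for the nuclear receptor half-site as AGGTCA, and for the MEF2 site and the CArG box bound by SRF. The MYH6 window held TATAAA 30 to 25 bases before the start and CATTCC on the opposite strand 238 to 233 bases before it. The MYL7 window held CATTCC on the opposite strand 139 to 134 bases, AGGTCA 148 to 143 bases and a CArG box 61 to 52 bases before the start. Over 35116 promoters of the same length, TATAAA was present in 10.7%, CATTCC in 11.9%, AGATAA in 9.17%, AGGTCA in 12.1%, the MEF2 site in 2.8% and the CArG box in 1.16%. The promoters of MYH7 and MYL2 are named here without a sequence.

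Most of the 8 genes were among the highest transcripts of the cells. By mean TPM over the 16 libraries MYL7 ranked 5 among all genes, MYL3 ranked 10, MYH7 ranked 15, MYL4 ranked 24 and MYH6 ranked 34. MYL2 ranked 111, MYLK3 622 and MYH7B 2695. The 8 genes together held 1.46% of TPM at Day 16 and 1.17%, 1.29% and 1.25% at Day 30 (RPMI/B27, then RPMI_glcM/B27, then HPLM/B27). Without the noncoding RNAs RNR1, RNR2 and RN7SK, these shares were 3.06%, 2.78%, 3.00% and 3.04%. RNR2 held 41.0% to 48.3% of TPM and RN7SK 87563 to 138467 TPM, while RNR1 ran from 49.5 to 29276 TPM.

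TPM compares levels between genes per length, and the order within each group was as follows. At Day 16 the order from high to low was MYL3, MYL7, MYH6, MYL4, MYH7, MYLK3, MYL2 and MYH7B, and the ranges of MYL3 and MYL7, of MYH6 and MYL4, and of MYL4 and MYH7 overlapped. In Day 30 RPMI/B27 it was MYL7, MYL3, MYH7, MYL4, MYH6, MYL2, MYLK3 and MYH7B. There the ranges of MYL3 and MYH7, of MYH7 and MYL4, and of MYH6 and MYL2 overlapped, though MYH7 was above MYL4 and MYH6 above MYL2 in every library. RPMI_glcM/B27 had the same order as Day 30 RPMI/B27, and MYL3 and MYH7 were the neighbors that overlapped. In HPLM/B27 MYH7 stood ahead of MYL3, with the rest in the same order, and the ranges of MYL7 and MYH7, of MYH7 and MYL3 and of MYH6 and MYL2 overlapped. MYH6 therefore stood ahead of MYH7 by mean at Day 16 and behind it in every Day 30 medium, and MYL2 was below MYLK3 at Day 16 and above it afterwards.

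**Figure D1:**
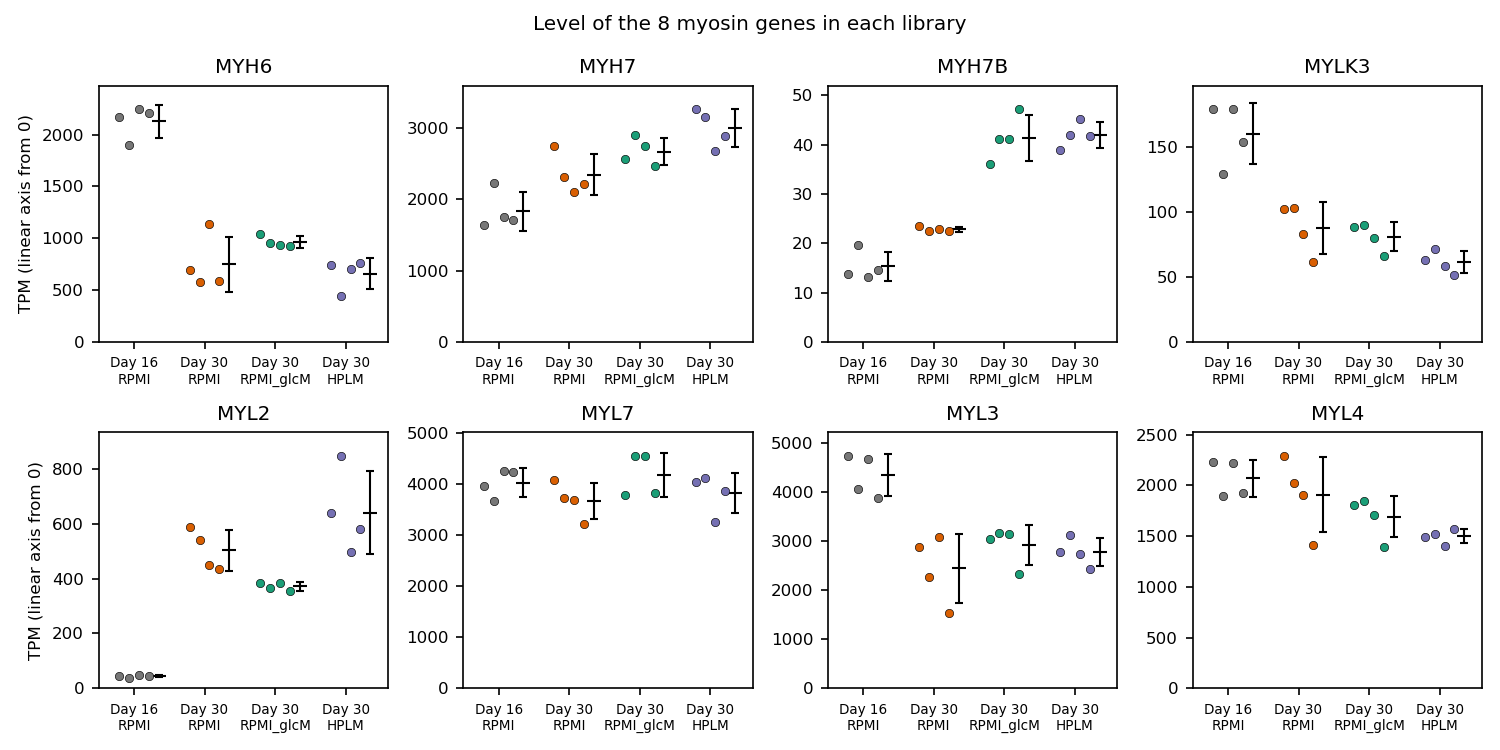
Level of each of the 8 genes in TPM on linear axes from 0, by group, with 1 point per library and a black bar at the mean with its SD (n = 4 per group). MYL2 rose from 37.9 to 48.0 TPM at Day 16 to 353 TPM or more in every Day 30 library, while MYH6 was at 1895 to 2244 TPM at Day 16 and at or under 1134 TPM in all Day 30 libraries.

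Differences were tested on log2(TPM + 1) with limma over all genes and all 4 groups, and a gene was called at an adjusted p under 0.05 (Benjamini-Hochberg over 16122 genes). Against Day 16, 6 of the 8 genes were called in Day 30 RPMI/B27, 3 higher and 3 lower, beside 19.9% of all genes tested (2.08% higher and 17.8% lower). In RPMI_glcM/B27 6 were called, 3 higher and 3 lower, beside 21.1% (3.34% higher and 17.8% lower), and in HPLM/B27 7 were called, 3 higher and 4 lower, beside 25.4% (3.0% higher and 22.4% lower). The groups did not overlap for 5, 7 and 7 of the 8 genes, beside 17.9%, 30.2% and 35.9% of all genes. MYH7, MYH7B and MYL2 were the 3 higher in each medium, and MYH6, MYL3 and MYLK3 were lower in each, joined by MYL4 in HPLM/B27. These 3 comparisons share the Day 16 libraries.

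Over all genes tested the median log2 fold change on TPM against Day 16 was -0.28, -0.22 and -0.29 in the 3 Day 30 groups, and the cause of this was not tested. After rescaling each library by its median-of-ratios factor, which brings these medians close to 0, 6, 5 and 5 of the 8 genes were called, 3 higher in each medium and 3, 2 and 2 lower, beside 17.5%, 27.5% and 25.3% of all genes (8.62%, 13.4% and 12.9% higher, 8.91%, 14.2% and 12.5% lower). Over all genes the calls higher and lower were 336 and 2867, 538 and 2862, and 483 and 3605 on TPM, and 1389 and 1437, 2156 and 2282, and 2074 and 2012 after rescaling. The members that this changed were MYL3 in RPMI_glcM/B27 and in HPLM/B27 and MYL4 in HPLM/B27, whose calls were lost. Separation from Day 16 without overlap was lost for MYH6, MYL3 and MYLK3 in RPMI/B27 and for MYL3 and MYL4 in RPMI_glcM/B27 and HPLM/B27. It was gained for MYH7 in RPMI/B27. The median log2 fold change of the 8 genes was -0.13, -0.12 and -0.27 on TPM and 0.20, 0.14 and 0.07 after rescaling.

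Between the Day 30 media fewer genes differed. MYH7B was the gene called between RPMI_glcM/B27 and RPMI/B27, 1 of 8 beside 2.2% of all genes (1.36% higher), and again between HPLM/B27 and RPMI/B27, 1 of 8 beside 2.41% (1.51% higher). Between HPLM/B27 and RPMI_glcM/B27 limma called 0 of 8, beside 0.0682% of all genes (11 genes). Without adjustment 3 of the 8, MYH6, MYL2 and MYLK3, were under 0.05 in limma there, beside 6.53% of all genes. Limma-voom on the recovered reads called 1, MYL2, and the share of all genes that it called is not given here. The groups did not overlap for 2, 1 and 2 of the 8 genes in these 3 comparisons, beside 7.0%, 7.3% and 7.28% of all genes. After rescaling 2, 2 and 1 of the 8 were called, beside 12.1%, 12.9% and 1.63% of all genes: MYH7B with MYL2, MYH7B with MYLK3, and MYL2.

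**Figure D2:**
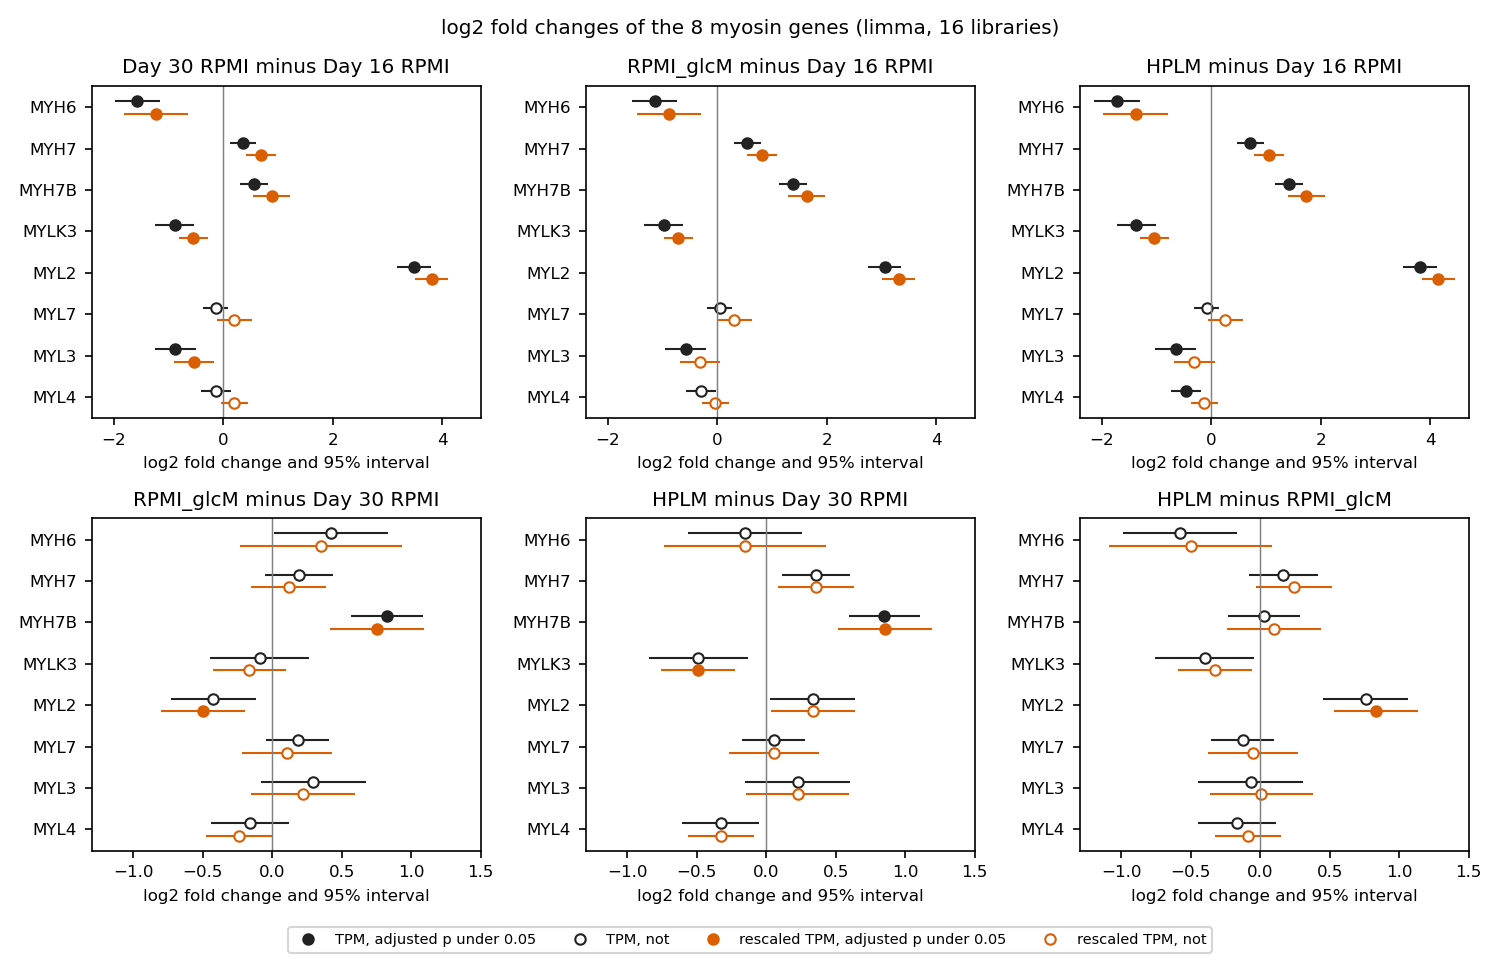
Log2 fold change of each gene on the log2(TPM + 1) scale in the 6 comparisons, in black on TPM and in orange after rescaling, with the 95% interval from limma, and with filled points where the adjusted p was under 0.05. Against Day 16 MYL2 lies at 3.48, 3.05 and 3.81 and MYH6 at -1.57, -1.14 and -1.72, while MYL7 lies near 0 with open points.

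On TPM, MYH6, the alpha heavy chain, was lower in every Day 30 library than in any Day 16 library. At Day 16 it was at 2174, 1895, 2244 and 2207 TPM in replicates 1 to 4. In Day 30 RPMI/B27 it was at 689, 578.5, 1134 and 583 TPM, in RPMI_glcM/B27 at 1042, 949.8, 938 and 919.8 TPM, and in HPLM/B27 at 739, 439.55, 699 and 756 TPM. The spread was widest in Day 30 RPMI/B27, where replicate 3 stood above the other libraries of its group, and narrowest in RPMI_glcM/B27. The level fell from 2129.9 ± 159 TPM to 746 ± 264, 962 ± 54.3 and 658 ± 148 TPM (SD, n = 4 each). On the log2 scale MYH6 fell by 1.57 in RPMI/B27 (adjusted p = 9.757e-05), by 1.14 in RPMI_glcM/B27 (adjusted p = 0.0006184) and by 1.72 in HPLM/B27 (adjusted p = 2.002e-05), each with an SE of 0.19. These were 2.96, 2.21 and 3.30 times lower levels. After rescaling the differences were -1.23, -0.88 and -1.38, with adjusted p of 0.005893, 0.02652 and 0.001668. On that scale Day 30 RPMI/B27 replicate 3, at 1447.4, reached the lowest Day 16 library, replicate 2, at 1446.8. Between media, every HPLM/B27 library was below every RPMI_glcM/B27 library (log2 difference -0.58), but limma's adjusted p was 0.4767. RPMI_glcM/B27 differed from RPMI/B27 by 0.42 (adjusted p = 0.3186) and HPLM/B27 from RPMI/B27 by -0.15 (adjusted p = 0.7896).

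MYH7, the beta heavy chain, was higher at Day 30, by less than MYH6 was lower. It was at 1640.4, 2234.5, 1749 and 1706 TPM at Day 16. In Day 30 RPMI/B27 it was at 2753, 2315, 2098.5 and 2212 TPM, in RPMI_glcM/B27 at 2567, 2896, 2745 and 2460.5 TPM, and in HPLM/B27 at 3262, 3155, 2678 and 2891 TPM. RPMI_glcM/B27 and HPLM/B27 did not overlap with Day 16, whereas in Day 30 RPMI/B27 replicates 3 and 4 were below the highest Day 16 library, replicate 2. The means were 1832 ± 272 TPM at Day 16 and 2345 ± 286, 2667 ± 192 and 2996 ± 264 TPM at Day 30. On the log2 scale MYH7 rose by 0.36 in RPMI/B27 (adjusted p = 0.03943), by 0.55 in RPMI_glcM/B27 (adjusted p = 0.003171) and by 0.72 in HPLM/B27 (adjusted p = 0.0004355), each with an SE of 0.12. After rescaling the rises were 0.70, 0.81 and 1.05, with adjusted p of 0.001457, 0.000255 and 2.666e-05. On TPM the call in RPMI/B27 rested on single libraries: without Day 16 replicate 1, 3 or 4 its adjusted p was 0.119, 0.0987 and 0.0774, and without Day 30 RPMI/B27 replicate 1 or 4 it was 0.0812 and 0.0561. Between media MYH7 did not pass, with log2 differences of 0.19 (adjusted p = 0.4753) for RPMI_glcM/B27 against RPMI/B27, 0.36 (adjusted p = 0.1289) for HPLM/B27 against RPMI/B27 and 0.17 (adjusted p = 0.8936) for HPLM/B27 against RPMI_glcM/B27.

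The ratio of MYH7 to MYH6 within a library does not depend on the scale of the library. It was 0.755, 1.179, 0.779 and 0.773 at Day 16, so that MYH6 was the higher of the pair in every Day 16 library but replicate 2. It was 3.99, 4.00, 1.85 and 3.795 in Day 30 RPMI/B27, 2.46, 3.05, 2.925 and 2.675 in RPMI_glcM/B27, and 4.415, 7.18, 3.83 and 3.82 in HPLM/B27. MYH7 was the higher in all 12 Day 30 libraries, and replicate 3 of Day 30 RPMI/B27 and replicate 2 of HPLM/B27 were the lowest and the highest of them. As a share of the pair, MYH7 was 46.1% at Day 16 and 76.0%, 73.4% and 82.0% at Day 30 (RPMI/B27, then RPMI_glcM/B27, then HPLM/B27). Each ratio was tested by exact permutation (two-sided, 4 libraries against 4), which cannot go below p = 0.0286, with adjustment over 18 tests. The log2 ratio was above that of Day 16 by 1.93, 1.69 and 2.44 in the 3 media, without overlap (exact permutation p = 0.0286, adjusted p = 0.0396 for each). Every HPLM/B27 library was above every RPMI_glcM/B27 library, with a difference of 0.75 between the group means of the log2 ratio, 1.68 times (exact permutation p = 0.0286, adjusted p = 0.0396). RPMI/B27 overlapped with both, at a difference of -0.23 for RPMI_glcM/B27 against it (exact permutation p = 0.514, adjusted p = 0.5143) and of 0.51 for HPLM/B27 against it (exact permutation p = 0.229, adjusted p = 0.2571). The first of these turned on Day 30 RPMI/B27 replicate 3, without which limma gave -0.50 and passed 0.05 without adjustment.

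**Figure D3:**
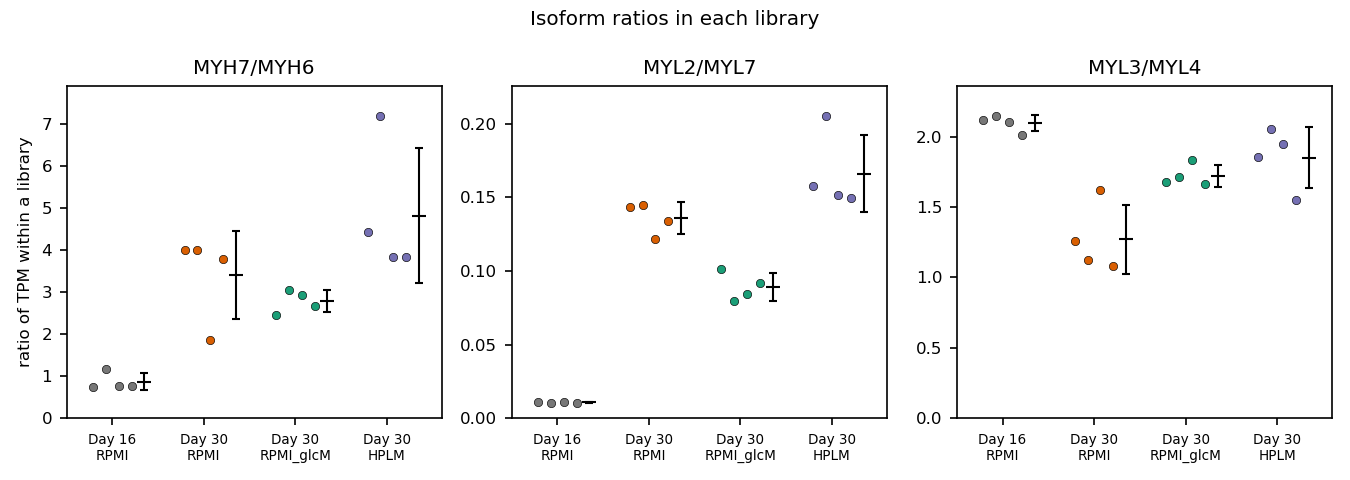
Ratio of MYH7 to MYH6, of MYL2 to MYL7 and of MYL3 to MYL4 in each library, on linear axes from 0, with 1 point per library and a black bar at the mean with its SD (n = 4 per group). MYL2/MYL7 separates all 4 groups, MYH7/MYH6 separates Day 16 from every Day 30 medium, and MYL3/MYL4 is lowest in Day 30 RPMI/B27.

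Smooth muscle genes also differed between libraries of a group. Day 30 RPMI/B27 replicate 3, with the lowest ratio of its group, had ACTA2 at 444 TPM, against 58.8 to 110 TPM in the rest of its group, and the summed level of the smooth muscle markers ran from 295 to 1081 TPM in that group. Day 16 replicate 2, with the highest ratio of its group, had ACTA2 at 160.3 TPM against 383 to 474 TPM in the rest of its group. In HPLM/B27 the library with the highest ratio, replicate 2, had ACTA2 at 94.2 TPM, close to replicates 1 and 3, whereas replicate 4 had the highest ACTA2 of the group, 192.3 TPM, with a ratio of 3.82. MYH11, which defines smooth muscle, was listed at 0 in every library. The summed cardiomyocyte markers moved the same way as ACTA2 in these libraries. They were at 20680 TPM in Day 30 RPMI/B27 replicate 3, against 12810 to 16550 TPM in the rest of its group. In Day 16 replicate 2 they were at 12270 TPM, against 15480 to 16420 TPM. In HPLM/B27 replicate 4 they were at 19640 TPM, against 17190 to 17920 TPM. The part of these levels in the ratio was not tested.

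MYH7B was the member that limma called on TPM between Day 30 media, and it set standard RPMI/B27 apart from the other 2. It was at 13.8, 19.6, 13.1 and 14.6 TPM at Day 16 and at 23.5, 22.5, 22.9 and 22.4 TPM in Day 30 RPMI/B27. It was at 36.0, 41.1, 41.2 and 47.2 TPM in RPMI_glcM/B27 and at 38.9, 42.0, 45.2 and 41.8 TPM in HPLM/B27. The groups formed 3 steps without overlap, Day 16, then Day 30 RPMI/B27, then the media with 5 mM glucose together. From 15.3 ± 2.93 TPM at Day 16 the mean rose to 22.8 ± 0.502, 41.4 ± 4.58 and 42.0 ± 2.59 TPM (SD, n = 4 each), a log2 fold change of 0.56 (adjusted p = 0.005222), 1.39 (adjusted p = 1.934e-06) and 1.41 (adjusted p = 1.593e-06), with an SE of 0.12. Against Day 30 RPMI/B27 it was higher by 0.82 in RPMI_glcM/B27, 1.77 times (adjusted p = 0.001978), and by 0.85 in HPLM/B27, 1.80 times (adjusted p = 0.001221). These comparisons share the RPMI/B27 libraries, and rescaling gave 0.75 (adjusted p = 0.007041) and 0.85 (adjusted p = 0.002718). HPLM/B27 and RPMI_glcM/B27 differed by 0.03 (adjusted p = 0.9926), with a 95% interval of -0.23 to 0.28. The smaller rise from Day 16 to Day 30 RPMI/B27 had an adjusted p of 0.0702 with only those 2 groups in the fit. MYH7B was a minor heavy chain transcript throughout, 0.383% of the heavy chain TPM at Day 16 and 0.737%, 1.13% and 1.14% at Day 30, and rested on 378 to 1842 reads per library.

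MYL2, the ventricular regulatory light chain, had the largest change of the 8 genes. It was at 44.8, 37.9, 48.0 and 45.1 TPM at Day 16. In Day 30 RPMI/B27 it was at 586, 541, 449 and 433 TPM, in RPMI_glcM/B27 at 383, 364, 383 and 353 TPM, and in HPLM/B27 at 638, 847, 495 and 579 TPM. All 12 Day 30 libraries were far above Day 16, and among them the RPMI_glcM/B27 libraries were the lowest, below every library of the other 2 media. From 43.9 ± 4.28 TPM, on 126 to 165 reads per library, MYL2 rose to 502 ± 73.2, 371 ± 14.8 and 640.0 ± 150.04 TPM, on 1011 to 3176 reads. The log2 fold changes were 3.48 (adjusted p = 5.396e-10), 3.05 (adjusted p = 4.264e-09) and 3.81 (adjusted p = 1.261e-10), with an SE of 0.14, that is 11.2, 8.30 and 14.0 times. Between media, HPLM/B27 was above RPMI_glcM/B27 by 0.76 (adjusted p = 0.05687). Of 9 fits that kept every library of these 2 groups, 5 put this difference under 0.05, with adjusted p from 0.0006654 to 0.1084. RPMI_glcM/B27 differed from RPMI/B27 by -0.43 (adjusted p = 0.152), which after rescaling was -0.50 (adjusted p = 0.03249). HPLM/B27 and RPMI/B27 overlapped, with a difference of 0.33 (adjusted p = 0.2796), which was 0.19 without HPLM/B27 replicate 2.

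MYL7, the atrial regulatory light chain, was called in no comparison. It was at 3973.5, 3670.4, 4259 and 4247 TPM at Day 16 and at 4090.4, 3725, 3687 and 3228.5 TPM in Day 30 RPMI/B27. It was at 3784, 4563, 4552 and 3832.5 TPM in RPMI_glcM/B27 and at 4039.9, 4129.7, 3261 and 3875 TPM in HPLM/B27. All 4 groups overlapped. The means were 4037.5 ± 278, 3683 ± 353, 4183 ± 433 and 3826.5 ± 391 TPM, and none of 9 fits called any comparison of MYL7. On TPM the differences from Day 16 were -0.14 (95% interval -0.36 to 0.09), 0.05 (-0.18 to 0.28) and -0.08 (-0.31 to 0.15), and after rescaling they were 0.20, 0.31 and 0.26.

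The ratio of MYL2 to MYL7 separated all 4 groups. It was 0.0113, 0.0103, 0.0113 and 0.0106 at Day 16, 0.143, 0.145, 0.122 and 0.134 in Day 30 RPMI/B27, 0.101, 0.0799, 0.0841 and 0.0921 in RPMI_glcM/B27, and 0.158, 0.205, 0.152 and 0.1495 in HPLM/B27. The ranges did not overlap between any pair of groups, in the order Day 16, RPMI_glcM/B27, RPMI/B27 and HPLM/B27. MYL2 was thus 1.08% ± 0.0468 of the regulatory light chain TPM at Day 16 and 12.0% ± 0.83, 8.20% ± 0.795 and 14.2% ± 1.89 in the 3 Day 30 media in the order RPMI/B27, RPMI_glcM/B27, HPLM/B27 (SD, n = 4 each). Each of the 6 comparisons had an exact permutation p of 0.0286, the smallest the design allows, and an adjusted p of 0.0396. The log2 ratio was above Day 16 by 3.64, 3.03 and 3.92, lower by 0.61 in RPMI_glcM/B27 than in RPMI/B27 (log2 difference -0.61), higher by 0.89 in HPLM/B27 than in RPMI_glcM/B27 (1.85 times) and higher by 0.28 in HPLM/B27 than in RPMI/B27 (1.21 times). The last rested on single libraries, since limma on the same log2 ratios, without adjustment, passed 0.05 with all libraries but not without Day 30 RPMI/B27 replicate 3 (difference 0.23) or without HPLM/B27 replicate 2 (difference 0.17).

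MYL3, the ventricular essential light chain, was highest at Day 16. It was at 4735, 4065, 4671 and 3882 TPM at Day 16. In Day 30 RPMI/B27 it was at 2879, 2271, 3090.2 and 1529.8 TPM, in RPMI_glcM/B27 at 3036, 3159, 3144 and 2319 TPM, and in HPLM/B27 at 2766, 3129, 2737 and 2432 TPM. On TPM every Day 30 library was below every Day 16 library, and the media overlapped with each other. Replicate 4 was the lowest of its group at Day 16 and in each Day 30 medium. From 4338 ± 429 TPM the mean fell to 2443 ± 701, 2914 ± 401 and 2766 ± 285 TPM, by 0.87 (adjusted p = 0.003628), 0.58 (adjusted p = 0.02928) and 0.65 (adjusted p = 0.0147) on the log2 scale, with an SE of 0.18. After rescaling the differences were -0.54 (adjusted p = 0.04586), -0.32 (adjusted p = 0.2004) and -0.31 (adjusted p = 0.2195), so that the call in Day 30 RPMI/B27 alone remained. On that scale each medium overlapped with Day 16. The call in RPMI_glcM/B27 was also lost without Day 16 replicate 1 (adjusted p = 0.0813), Day 16 replicate 3 (adjusted p = 0.0789) or RPMI_glcM/B27 replicate 4 (adjusted p = 0.106).

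MYL4, the atrial and embryonic essential light chain, moved less. It was at 2233, 1895, 2218 and 1929 TPM at Day 16, at 2292, 2025, 1907 and 1415 TPM in Day 30 RPMI/B27, at 1809.5, 1842, 1713 and 1396 TPM in RPMI_glcM/B27, and at 1492, 1525, 1406 and 1566 TPM in HPLM/B27. On TPM, RPMI_glcM/B27 and HPLM/B27 lay below Day 16 without overlap, and Day 30 RPMI/B27 overlapped with it, whereas after rescaling each medium did. The means were 2069 ± 182, 1909 ± 367, 1689.9 ± 203 and 1497 ± 67.9 TPM. MYL4 fell in HPLM/B27 by 0.46 on the log2 scale (adjusted p = 0.01809, SE 0.13), while the differences in RPMI/B27 and RPMI_glcM/B27 were -0.13 (adjusted p = 0.4804) and -0.30 (adjusted p = 0.1259). The call in HPLM/B27 did not remain after rescaling, at -0.12 (adjusted p = 0.4607), nor without Day 16 replicate 1 (0.0568), Day 16 replicate 3 (0.0561) or HPLM/B27 replicate 3 (0.0512). HPLM/B27 against Day 30 RPMI/B27 was -0.33 (adjusted p = 0.2336), and without RPMI/B27 replicate 4 it was -0.47 (adjusted p = 0.0288).

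In the essential light chain pair, the ventricular member stood lower against the atrial one at Day 30 in both RPMI media. MYL3/MYL4 was 2.12, 2.145, 2.11 and 2.01 at Day 16, 1.26, 1.12, 1.62 and 1.08 in Day 30 RPMI/B27, 1.68, 1.715, 1.84 and 1.66 in RPMI_glcM/B27, and 1.85, 2.05, 1.95 and 1.55 in HPLM/B27. MYL3 was the higher of the pair in all 16 libraries, and Day 30 RPMI/B27 held the lowest ratios. Against Day 16 the log2 ratio was -0.74 in RPMI/B27 and -0.28 in RPMI_glcM/B27, both without overlap (exact permutation p = 0.0286, adjusted p = 0.0396), and -0.19 in HPLM/B27 (exact permutation p = 0.0571, adjusted p = 0.0686). In limma, without adjustment, the difference in RPMI_glcM/B27 passed 0.05 with all libraries but not without Day 16 replicate 1, 2 or 3 or RPMI_glcM/B27 replicate 1, 2 or 4. RPMI_glcM/B27 was above RPMI/B27 by 0.46 (exact permutation p = 0.0286, adjusted p = 0.0396). HPLM/B27 was above RPMI/B27 by 0.55 with ranges that overlapped (exact permutation p = 0.0571, adjusted p = 0.0686), and limma on the same log2 ratios passed 0.05 without adjustment. HPLM/B27 and RPMI_glcM/B27 differed by 0.10 (exact permutation p = 0.314, adjusted p = 0.3328).

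MYLK3, the kinase, was lower at Day 30 in every medium. It was at 179, 129.7, 179 and 154 TPM at Day 16. In Day 30 RPMI/B27 it was at 103, 104, 83.3 and 61.5 TPM, in RPMI_glcM/B27 at 88.3, 90.0, 80.1 and 66.1 TPM, and in HPLM/B27 at 63.4, 71.7, 58.4 and 51.4 TPM. On TPM no Day 30 library reached the lowest Day 16 library, and HPLM/B27 overlapped with both other media. After rescaling Day 30 RPMI/B27 overlapped with Day 16, and HPLM/B27 with neither other medium. From 161 ± 23.7 TPM the mean fell to 87.7 ± 19.8, 81.1 ± 10.9 and 61.2 ± 8.53 TPM, 1.84, 1.96 and 2.59 times lower (adjusted p = 0.002385, 0.0006852 and 3.917e-05). The log2 differences were -0.88, -0.97 and -1.37, and -0.55, -0.71 and -1.04 after rescaling, all still past the threshold. HPLM/B27 against Day 30 RPMI/B27 was -0.49 (adjusted p = 0.1527) on TPM. It passed in 4 of 9 fits that kept every library of these 2 groups, and without RPMI/B27 replicate 4 it was -0.65 (adjusted p = 0.027). HPLM/B27 against RPMI_glcM/B27 was -0.40 (adjusted p = 0.6908). Relative to its substrate, MYLK3 was at 3.93 TPM per 100 TPM of regulatory light chain at Day 16 and at 2.08, 1.79 and 1.38 TPM in the 3 Day 30 media.

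Summed by class, the essential light chains were highest at Day 16. The heavy chains summed to 3978 ± 135 TPM at Day 16 and to 3114 ± 301, 3671 ± 191 and 3697 ± 256 TPM in the Day 30 media in the same order (SD, n = 4 each). The regulatory light chains summed to 4081 ± 282, 4185 ± 418, 4554 ± 436 and 4466 ± 519 TPM. The essential light chains summed to 6407 ± 606, 4352 ± 1012, 4604 ± 597 and 4263 ± 281 TPM. Regulatory light chain TPM per heavy chain TPM was therefore 1.03 at Day 16 and 1.35, 1.24 and 1.21 at Day 30, and essential light chain TPM per heavy chain TPM was 1.61 at Day 16 and 1.39, 1.25 and 1.16 at Day 30. These sums are descriptions and were not tested.

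**Figure D4:**
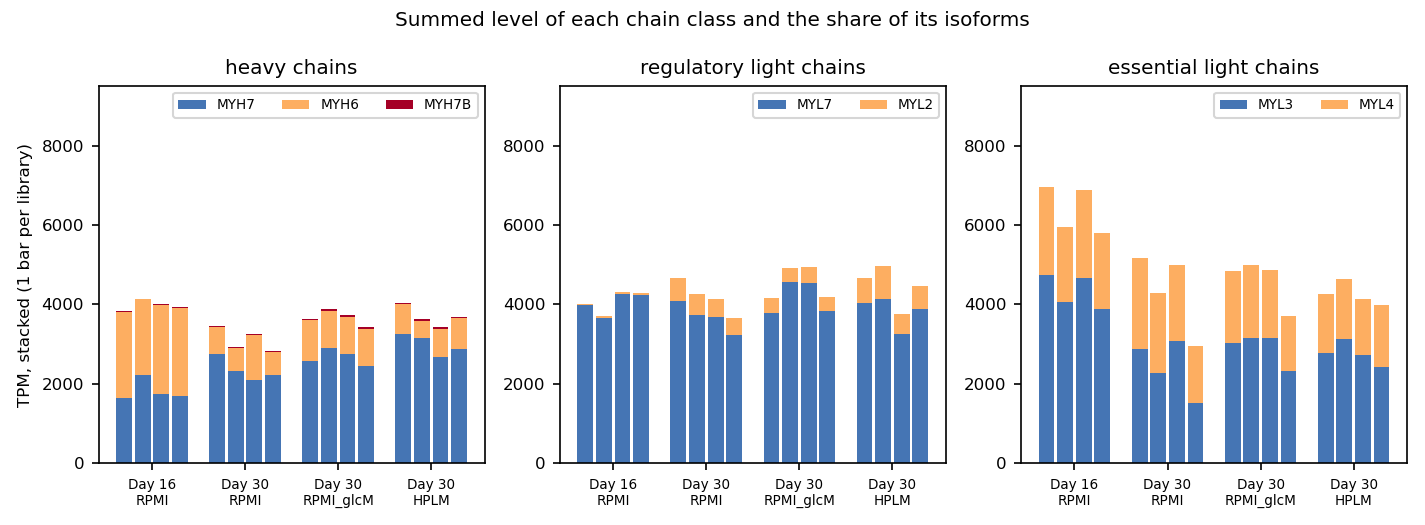
Stacked TPM of the heavy chains, the regulatory light chains and the essential light chains, with 1 bar per library and the libraries ordered by group. The MYH6 part of the heavy chain bars shrinks and the MYH7 part grows from Day 16 to Day 30, MYL2 appears as a visible part of the regulatory light chains at Day 30, and the essential light chain bars are tallest at Day 16.

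The sarcomeric myosins of skeletal muscle were almost absent. None of 7 skeletal and embryonic heavy chain genes reached the filter, MYH8 and MYH13 were listed at 0 in all libraries, and MYH3, the embryonic heavy chain, had group means of 0.766 to 1.14 TPM. Among 4 nonmuscle and smooth muscle heavy chains, of which 3 were tested, MYH10, the nonmuscle IIB heavy chain, fell from 156.7 TPM to 70.8, 72.2 and 61.7 TPM at Day 30, by 1.15, 1.11 and 1.33 on the log2 scale (adjusted p = 1.91e-05, 1.35e-05 and 2.42e-06). MYH14, a further nonmuscle heavy chain, was called higher in HPLM/B27, at 2.94 TPM against 1.58 TPM at Day 16 (log2 0.61, adjusted p = 0.0262). Both kept their calls after rescaling. The median log2 fold change of the 3 genes was -0.41, -0.29 and -0.57, against -0.28, -0.22 and -0.29 over all genes.

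Of 10 further myosin light chain genes 6 were tested. MYL6, the ubiquitous essential light chain, was at group means of 1780 to 2441 TPM. None passed in RPMI/B27, and 2 fell in each of the other Day 30 media, beside 17.8%, 17.8% and 22.4% of all genes called lower. These were MYL9, the smooth muscle and nonmuscle regulatory chain, from 606.7 to 403.5 and 404.3 TPM (adjusted p = 0.0208 and 0.0198), and MYL12B, a nonmuscle regulatory chain, from 294.8 to 200.3 and 213.9 TPM (adjusted p = 0.01 and 0.0261). No fall remained after rescaling, under which MYL5 and MYL6B passed as higher in RPMI/B27, beside 8.62% of all genes. The list medians were -0.02, -0.30 and -0.28.

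Among 13 other kinases and phosphatase subunits that act on myosin light chains, 11 were tested, and 2, 4 and 3 fell against Day 16 in the 3 media, beside 17.8%, 17.8% and 22.4% of all genes called lower. PPP1R14A, an inhibitor of myosin phosphatase, fell by 1.29 in RPMI_glcM/B27 (adjusted p = 0.00175) and by 1.22 in HPLM/B27 (adjusted p = 0.00267), and did so after rescaling as well (-1.04 and -0.89). ROCK1 and ROCK2, kinases that inhibit myosin phosphatase, fell in the same pair of media, by 0.36 and 0.40 in RPMI_glcM/B27 and by 0.37 and 0.41 in HPLM/B27, and neither call remained after rescaling. PPP1R12C, a phosphatase subunit, was the gene called higher, in HPLM/B27 (19.8 to 28.1 TPM, adjusted p = 0.0441). After rescaling 0, 2 and 1 genes of this list were lower and 1, 1 and 2 higher. Beside them 8.91%, 14.2% and 12.5% of all genes were lower and 8.62%, 13.4% and 12.9% higher. The list medians were -0.23, -0.26 and -0.22.

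Of 11 thick filament partners 6 were tested, and the call among them was MYBPC3, cardiac myosin binding protein C, which rose in HPLM/B27 from 582.8 to 780.1 TPM (log2 0.43, adjusted p = 0.0447). After rescaling MYBPC3 passed as higher in each medium, and TTN, the giant elastic filament, and OBSL1 did so in RPMI_glcM/B27 and HPLM/B27. On that scale 8.62%, 13.4% and 12.9% of all genes were called higher. The list medians were -0.07, 0.24 and 0.13. Of 10 genes for myosin folding and turnover, CRYAB, a small heat shock protein, rose from 86.4 to 196, 204 and 194 TPM and TRIM63, a muscle ubiquitin ligase, from 85.9 to 149, 179.9 and 170.8 TPM. Their log2 fold changes were 1.18, 1.23 and 1.16 for CRYAB and 0.79, 1.06 and 0.99 for TRIM63. UNC45B, the striated muscle myosin chaperone, fell by 0.52, 0.47 and 0.61 (adjusted p = 0.0367, 0.0496 and 0.0135), and no fall in this list remained after rescaling. In all 1, 2 and 4 genes of the list fell, again beside 17.8%, 17.8% and 22.4% of all genes. After rescaling 4 were higher in each medium, beside 8.62%, 13.4% and 12.9% of all genes. HSP90AB1, the cytosolic chaperone, was lower in HPLM/B27 than in Day 30 RPMI/B27 as well (-0.49, adjusted p = 0.00577). The list medians were -0.16, -0.33 and -0.40.

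Of 26 listed regulators of these genes, transcription factors and chromatin proteins, 23 were tested, and 9 fell and 0 rose in limma against Day 16 in each medium, beside 17.8%, 17.8% and 22.4% of all genes called lower and 2.08%, 3.34% and 3.0% called higher. MEF2C, a cardiac transcription factor, fell by 1.40, 1.44 and 1.16 and SMARCA4 (BRG1), a chromatin remodeler, by 0.82, 0.83 and 0.85 on the log2 scale. After rescaling 6, 7 and 7 were lower, beside 8.91%, 14.2% and 12.5% of all genes, and 3, 2 and 2 higher, beside 8.62%, 13.4% and 12.9%. The list medians were -0.40, -0.32 and -0.45. On TPM, HSP90AB1 was the call of these lists between the Day 30 media. After rescaling, of 62 listed genes tested, RPMI_glcM/B27 had 1 higher and 5 lower than RPMI/B27, HPLM/B27 had 5 higher and 3 lower than RPMI/B27, and HPLM/B27 had 1 higher (MEF2C) than RPMI_glcM/B27, beside 12.1%, 12.9% and 1.63% of all genes called.

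MHRT, a long noncoding RNA that lies within MYH7 at 23415450 to 23417595 on chromosome 14, was close to absent, with 0 to 2 reads per library at Day 16 and 3 to 11, 1 to 7 and 1 to 11 reads in the 3 Day 30 media. Its mean level was 0.218 TPM at Day 16 and 1.39, 1.27 and 1.32 TPM at Day 30, and no comparison of it passed the test. MHRT overlaps MYH7, and the strand setting of the authors' counting is not given in the sources used here, so reads of the pair may not be told apart. MYHAS, the antisense RNA of the skeletal heavy chain cluster, had 1 read in 1 library.

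For 4 members, the genes of at least 10 TPM (6833 genes) with the most similar log2 levels over the 16 libraries were listed by Pearson correlation, as a description. These were IRX3 (0.944), CTTN (0.918) and TUBB4B (0.915) for MYH6, TESC (0.949), BHLHE40 (0.924) and LRRC10 (0.92) for MYH7, PRRX1 (0.962), CRYAB (0.956) and TCAP (0.943) for MYL2, and RTL8B (0.786), PPID (0.786) and RNF25 (0.782) for MYL7. The 16 libraries share the 4 groups and the scaling of TPM, so these values carry the difference between Day 16 and Day 30 as well as likeness within groups.

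Other measures also differed between these libraries. Reads recovered on genes ran from 7744768 to 16183655 per library, and a mitochondrial ribosomal RNA, RNR1, from 49.5 to 29276 TPM, highest in Day 30 RPMI/B27 replicates 4 and 3. The summed level of fibroblast markers was 544 to 921 TPM at Day 16 and 229 to 439, 178 to 244 and 233 to 282 TPM at Day 30, in the order RPMI/B27, RPMI_glcM/B27, HPLM/B27. Mean FN1 fell from 398.6 TPM to 110.4, 70.39 and 103.6 TPM. POSTN, at 32.11 TPM at Day 16, was at 45.54, 44.68 and 27.75 TPM at Day 30. THY1 rose in RPMI/B27 and DCN in HPLM/B27, both at low levels. The summed level of hepatic endoderm markers was 442 to 781 TPM at Day 16 and 324 to 569, 92.5 to 211 and 69.0 to 207 TPM at Day 30. In this list mean ALB rose from 21.22 to 241.6, 78.07 and 49.87 TPM, whereas AFP (440.7 TPM at Day 16) and the rest fell. The sum of endothelial markers was 43.2 to 55.5 TPM at Day 16 and 14.5 to 33.5, 16.8 to 26.2 and 19.8 to 31.9 TPM at Day 30. It was mostly KDR, with means of 46.96 TPM at Day 16 and 19.46, 20.12 and 25.73 TPM at Day 30. The other endothelial markers had group means of at most 0.7918 TPM. In Day 30 RPMI/B27 TEK fell, VWF stayed at 0, and the rest, PECAM1 and CDH5 among them, had higher means than at Day 16. The part of these levels in the differences of the 8 genes was not tested. Atrial markers other than the 8 genes summed to 153 to 198 TPM at Day 16 and to 159 to 300, 184 to 196 and 215 to 349 TPM at Day 30, and ventricular markers to 247 to 319 TPM at Day 16 and to 160 to 259, 236 to 335 and 187 to 248 TPM at Day 30. In the atrial list mean NPPA rose from 88.95 TPM to 165.1, 122.2 and 194.0 TPM, and SLN rose as well. TBX5 fell from 54.74 TPM to 44.11, 41.11 and 39.49 TPM, GJA5 and KCNA5 fell too, and NR2F2 stayed at 17.4 to 18.7 TPM. In the ventricular list IRX3 and HAND1 fell in each medium. IRX4, HEY2 and GJA1 rose in RPMI_glcM/B27, and GJA1 in HPLM/B27 as well.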

How the data were processed

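Total RNA of 16 libraries of WTC11 hPSC-CMs was sequenced by the authors from a Takara SMARTer stranded kit. Per the submitters' processing notes, STAR 2.5.3a, featureCounts 2.0.3, R 4.1.3 and hg38 were used. The values the authors deposited are TPM, for 43388 genes. Annotation, gene lengths, the program that made the TPM, and the handling of strand and of reads with several matches are not given in the sources used here. The authors' own tests used counts.

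The 16122 genes whose mean reached 1 TPM were tested with limma 3.58.1 (trend, R 4.3.3) on log2(TPM + 1), all 4 groups in 1 fit, for 6 comparisons, with Benjamini-Hochberg adjustment per comparison and a threshold of 0.05. Fold changes are on that scale, which understates changes of low genes. Isoform ratios were tested by exact permutation (two-sided) in Python 3.11.15 with scipy 1.17.1, adjusted over 18 tests. Whole reads were recovered from the steps of the TPM for all 31047 genes above 0 (tolerance 0.05), 7744768 to 16183655 per library. The fits were tested on simulated data. The genes named are the 8 members, the listed genes past the threshold and the nearest genes by correlation. The result of 1 listed gene is not reported here. Members and lists were chosen with earlier results of these data known.

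Alternatives were a pseudocount of 0.1, all genes above 0, rescaled TPM, only the 2 groups compared, a replicate block, limma-voom on recovered reads (a mean of at least 10), log2 TPM of RNR1 as a covariate, ratios of TPM + 1, and each library left out. Both limma-voom with median-of-ratios factors and the libraries of at most 1000 TPM of RNR1 were chosen after seeing the data. Groups came from the labels, and no library was left out of the main values.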

Additional observations from a re-analysis of the deposited data

Results flagged for a closer look

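In groups of 4 libraries a value was singled out where its gap to the nearest other library relative to the range of the group exceeded the 95% limit of Dixon's test, which chance does in about 1 of 20 groups. Among 44 groups, 8 genes and 3 ratios in 4 groups each, 4 held such a value. MYL3 was at 2319 TPM in RPMI_glcM/B27 replicate 4, below the 3036 to 3159 TPM of the other libraries. MYH7/MYH6 was 1.179 in Day 16 replicate 2, above 0.755 to 0.779 in the rest of its group. It was 1.851 in Day 30 RPMI/B27 replicate 3, below 3.795 to 4.00 in the rest. MYL2/MYL7 was 0.2051 in HPLM/B27 replicate 2, above 0.1495 to 0.158 in the rest.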

How the results depend on the processing

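Among 432 log2 fold changes of members under alternatives other than leaving out single libraries, 383 kept direction and side of the threshold, 17 passed where the main value did not, 19 no longer passed and 13 changed sign. The sign changes were of values that were not called. MYL4 in Day 30 RPMI/B27 against Day 16 became 0.20 after rescaling, 0.0072 with the RNR1 covariate, 0.0295 with limma-voom and 0.21 with limma-voom and median-of-ratios factors. MYL7 became 0.20, 0.0269 and 0.20 in RPMI/B27 and 0.26, 0.053 and 0.26 in HPLM/B27 after rescaling, with limma-voom and with its median-of-ratios form. MYL3 between HPLM/B27 and RPMI_glcM/B27 became 0.0061 after rescaling and 0.0072 with that form, and MYL7 between HPLM/B27 and RPMI/B27 became -0.0216 in libraries of at most 1000 TPM of RNR1.

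The number of members called moved by over 1.5 times in 4 comparisons. Day 30 RPMI/B27 against Day 16 had 3 in libraries of at most 1000 TPM of RNR1, 4 with only those groups in the fit and 5 with all genes above 0. RPMI_glcM/B27 and HPLM/B27 against Day 16 stayed at 5 or more. RPMI_glcM/B27 against RPMI/B27 had 2 after rescaling and with both forms of limma-voom, and 0 at most 1000 TPM of RNR1. HPLM/B27 against RPMI/B27 had 2 after rescaling and with the RNR1 covariate, 4 with limma-voom, 5 with median-of-ratios factors and 0 at most 1000 TPM of RNR1, and HPLM/B27 against RPMI_glcM/B27 had 1 under rescaling, the replicate block, the covariate and both forms of limma-voom. The counts at most 1000 TPM of RNR1 rest on fewer libraries, 1 of them in Day 30 RPMI/B27. Shares of all genes called are given here for TPM and rescaled TPM alone. Counts under the other settings, or with a library left out, therefore cannot be set against such a share. MYH7 in RPMI/B27 against Day 16 had an adjusted p of 0.164 with all genes above 0 and of 0.168 with only those groups in the fit.

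For the ratios, tested under the alternatives by limma at 0.05 without adjustment, MYH7/MYH6 between HPLM/B27 and RPMI/B27 passed with the replicate block at 0.51. MYL2/MYL7 between these media no longer passed at most 1000 TPM of RNR1, at 0.28. MYL3/MYL4 in RPMI_glcM/B27 against Day 16 no longer passed with the RNR1 covariate, at -0.26. Between HPLM/B27 and RPMI/B27, MYL3/MYL4 passed in limma at 0.55, as TPM + 1 at 0.55, with the block at 0.55, with the covariate at 0.53 and at most 1000 TPM of RNR1 at 0.83, where RPMI/B27 had 1 library, assumed to vary like the other groups, and HPLM/B27 had 2. Between HPLM/B27 and RPMI_glcM/B27, with 2 libraries each, it passed in that setting at 0.24. The cause of these moves was not tested.

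With each library left out in turn, HPLM/B27 against RPMI/B27 had 1 to 3 members called, 3 without RPMI/B27 replicate 4. MYH7/MYH6 ran from 0.24 to 0.61 between HPLM/B27 and RPMI/B27 and from -0.50 to -0.13 between RPMI_glcM/B27 and RPMI/B27, MYL2/MYL7 from 0.17 to 0.325 between HPLM/B27 and RPMI/B27, and MYL3/MYL4 from -0.31 to -0.27 between RPMI_glcM/B27 and Day 16, where 6 of 8 such fits no longer passed, and from 0.48 to 0.68 between HPLM/B27 and RPMI/B27. Uncalled values that changed sign were MYH6 (-0.26 to 0.066) and MYL7 (-0.0073 to 0.13) between HPLM/B27 and RPMI/B27, MYH7B between HPLM/B27 and RPMI_glcM/B27 (-0.0379 to 0.0893), MYL4 in RPMI/B27 against Day 16 (-0.23 to 0.0037) and MYLK3 between RPMI_glcM/B27 and RPMI/B27 (-0.25 to 0.0018). Replicate numbers were not taken as pairs in the main fit, and the labels do not say that equally numbered libraries belong together. Deviations of equally numbered libraries correlated above 0.1 in 6 of 24 pairs (-0.066 to 0.2106), and over genes of at least 10 TPM in 14 of 24 (-0.2393 to 0.442). A library correlated best with its own number, out of the 4 of another group, in 18 of 48 cases. Some pairing of equal numbers therefore remains possible, and the replicate block was run as an alternative. With the replicate block MYL2 between HPLM/B27 and RPMI_glcM/B27 had an adjusted p of 0.0459.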
